A study of Mus musculus with 39 samples.

Results

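A set of 10 genes of the mTOR pathway were followed in the parathyroid glands of mice, which release parathyroid hormone to control blood calcium: Mtor, Rptor, Rictor, Deptor, Tsc1, Tsc2, Rheb, Rps6kb1, Eif4ebp1 and Sesn1. These 10 genes were chosen by name, as a growth pathway relevant to parathyroid enlargement, from the 27179 gene IDs of the count table, and all 10 passed the filter on low counts. Earlier results of these data were known when they were chosen. RNA was sequenced from 39 samples of male mice aged 11 weeks, collected at 6 zeitgeber times (ZT, hours after lights on) spaced by 4 h. All mice were Bmal1 flox/flox, with loxP sites around exon 8 of the clock gene Bmal1 (symbol Arntl). The 21 control samples (WT) came from littermates without recombinase activity. The 18 knockout samples (KO) carried PTHcre, a transgene in which the human parathyroid hormone promoter drives Cre recombinase. WT held 3, 4, 2, 3, 5 and 4 samples at ZT0, ZT4, ZT8, ZT12, ZT16 and ZT20, and KO held 3, 3, 3, 2, 3 and 4. Each sample pooled the glands of 2 mice, so p-values measure the spread between such pools. The titles were followed for time, although they differed from another label in 3 samples, WT replicates 4 and 5 and KO replicate 1 of ZT16.

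mTOR is a kinase that couples cell growth to nutrients, energy and growth factors. With raptor it forms mTORC1, which drives protein synthesis through S6 kinase and through 4E-BP1, and with rictor it forms mTORC2, which acts on Akt and the cytoskeleton. The TSC complex holds the GTPase Rheb, the direct activator of mTORC1, in its inactive state. Chronic stimulation of the parathyroid, as in kidney failure, leads to gland enlargement, and mTOR inhibitors have been studied as a brake on it in rats.

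Libraries held 38111766 to 68938704 counts (median 55836787). The parathyroid hormone gene Pth took 6.34 to 19.1% of the counts and the parathyroid transcription factor gene Gcm2 was read at 273 to 511 CPM (read counts scaled to a common library size), so the tissue label matched its markers. Other tissue was present to different degrees: the thyroid follicle gene Tg ranged from 0.548 to 61179 CPM, the T cell gene Cd3e from 0.0354 to 28.8 CPM and the fat gene Adipoq from 2.32 to 73.3 CPM. The skeletal muscle gene Acta1 was at 0 in 5 libraries and reached 2.09 CPM. Mean levels of Arntl were 22.5 ± 12.2 CPM in the WT libraries and 16.8 ± 6.24 CPM in the KO libraries, and the difference did not pass the test (log2 fold change -0.25 ± 0.19 SE, adjusted p = 0.465 with edgeR). Its gene-level counts include exons outside the deleted exon 8, so they check the genotype labels little. In bulk tissue, fewer cells of a type and less RNA per cell cannot be told apart.

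The motif that the BMAL1 protein and its partners bind, the E-box CACGTG, was sought in RefSeq promoter windows of GRCm38.p6, from 250 bases before to 50 bases after each annotated start. Windows were found for 8 of the 10 genes. Deptor and Eif4ebp1 had none, so their promoters were not searched. The E-box, which reads the same on both strands, was present in 1 of their 9 windows and in 7.15% of all 32851 windows. That window belonged to Rheb, the GTPase gene. Its 250 bases before the start are shown because they hold the only E-box found for these 8 genes (capitals). They lie on the minus strand at chr5:24842362-24842611.
Rheb: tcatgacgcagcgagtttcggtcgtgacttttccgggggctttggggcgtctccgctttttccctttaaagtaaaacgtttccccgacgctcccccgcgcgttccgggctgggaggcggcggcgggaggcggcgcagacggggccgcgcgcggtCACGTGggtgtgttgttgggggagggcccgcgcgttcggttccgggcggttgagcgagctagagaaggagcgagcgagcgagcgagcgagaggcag
No window of these 8 genes held the D-box TTATGTAA (0.938% of all windows) or the ROR elements TAGGTCA (2.61%) and TGGGTCA (3.98%), searched on both strands. The FOXO element TGTTTAC, searched because Sesn1 is known as a FOXO target, was present in 3.65% of all windows and in 1 window of Sesn1, within the 50 bases after the start. A match is a description of the letters, not of binding.

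All 10 mRNAs were expressed in every library, at levels that kept nearly the same order in both genotypes. To compare genes, mean CPM was divided by the exon length in kilobases. On that scale WT levels were highest for Rheb, at 24.7 ± 2.15 CPM per kb (SD, n = 21). Tsc2, the GTPase-activating subunit of the TSC complex, followed at 17.5 ± 2.08 CPM per kb, and the kinase gene Mtor stood at 13.0 ± 1.46. The order of these 3 genes was nearly fixed, since Rheb exceeded Tsc2 in 38 of 39 libraries and Tsc2 exceeded Mtor in all 39. Rptor, the raptor subunit of mTORC1, was at 10.5 ± 0.903 CPM per kb and exceeded the next gene, Sesn1, in 31 libraries.

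Sesn1, whose protein sestrin 1 restrains mTORC1 when leucine is scarce, stood at 9.60 ± 0.879 CPM per kb in WT, and Rictor, the defining subunit of mTORC2, at 8.90 ± 0.740. These neighbours did not differ clearly: Sesn1 exceeded Rictor in 24 of 39 libraries, and in KO the order of their means was reversed, at 9.38 ± 0.651 and 9.53 ± 0.694 CPM per kb. Eif4ebp1, the translation repressor 4E-BP1 that mTORC1 inactivates, was at 7.50 ± 1.23 CPM per kb in WT. Tsc1, the stabilising subunit of the TSC complex, was at 7.36 ± 0.595. These neighbours overlapped as well, with Eif4ebp1 above Tsc1 in 14 of 39 libraries although its WT mean was higher. Rps6kb1, S6 kinase 1, was at 6.01 ± 0.426 CPM per kb.

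Deptor, an inhibitor that binds mTOR in both complexes, was by far the lowest, at 1.27 ± 0.294 CPM per kb in WT and 1.03 ± 0.146 in KO. Rps6kb1 exceeded it in all 39 libraries. Some exon bases of 4 of the genes are shared with a gene on the opposite strand, and the strand setting of the counting is not given in the sources used here. The shared part was 10.9% of the exon bases of Tsc2 (with Pkd1), 3.49% for Deptor (with Gm9920), 1.93% for Rps6kb1 (with Rnft1) and 1.27% for Rptor (with Rptoros). How many reads these overlaps took was not tested.

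**Figure D1:**
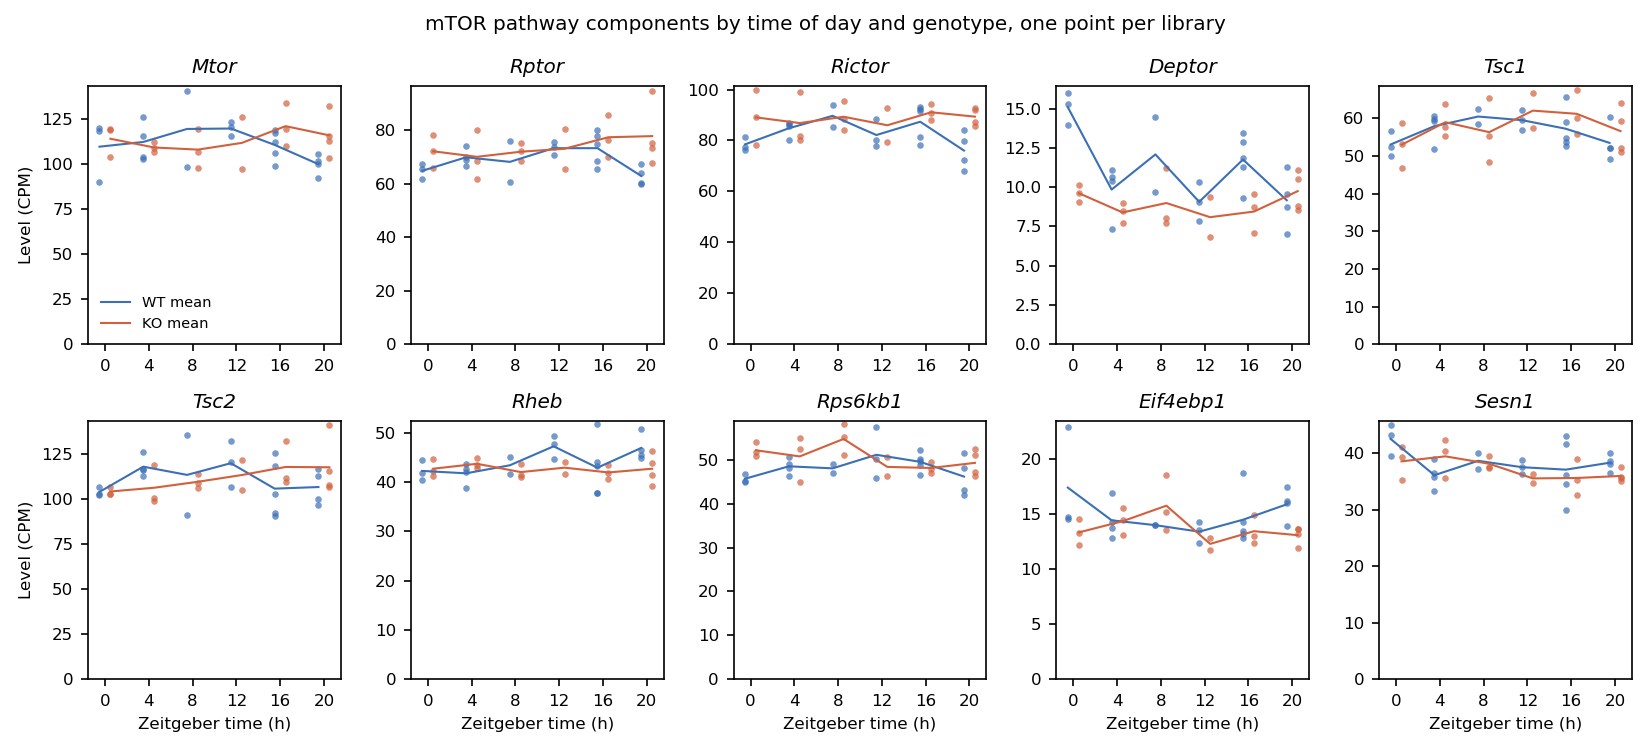
Level of each of the 10 genes (y axis, CPM, starting at 0) against zeitgeber time (x axis, h). Each point is 1 library, lines join group means, WT is blue and KO orange. The genotypes overlap for every gene. At ZT0 the mean of Deptor is 15.1 CPM in WT and 9.61 CPM in KO.

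Deletion of Bmal1 in the parathyroid was accompanied by a lower level of Deptor, and by no difference past the test in the other 9 genes. Mean Deptor was 11.0 ± 2.55 CPM over the WT libraries (SD, n = 21) and 8.97 ± 1.27 CPM over the KO libraries (SD, n = 18). The core kinase gene Mtor was at 111 ± 12.5 CPM in WT and 114 ± 10.6 CPM in KO. The fitted changes of Tsc1, Tsc2, Rheb and Sesn1 in KO lay between -3.21% and 2.25%. Rptor and Rictor leaned higher and Eif4ebp1 lower in KO, without passing the test.

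Over all times, with time as a factor, 1 of the 10 genes was past an adjusted p of 0.05 in the edgeR test, where 7.69% of the 18661 genes tested were. It was lower in KO, as were 4.11% of all genes, and 0 of the 10 were past it as higher (2 at an unadjusted p under 0.05, 0 with DESeq2), against 3.58% of all genes. Their median log2 fold change was 0.023, against 0.00098 over all genes. Their median absolute log2 fold change was 0.056, against 0.11 over all genes.

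Deptor (Entrez ID 97998, mm10 chromosome 15, 55112317 to 55259273, plus strand) was the gene that passed. At ZT0 it was read at 15.3, 16.0 and 14.0 CPM in WT and at 9.06, 9.64 and 10.1 CPM in KO. At ZT4 the WT values were 10.4, 10.6, 11.1 and 7.31 CPM and the KO values 7.69, 8.46 and 9.02 CPM. The groups did not overlap at ZT0, whereas at ZT4 the single low WT library lay below all 3 KO libraries. The WT libraries at ZT0 were rich in other tissue. Thyroid markers summed to 54425 and 55551 CPM in replicates 2 and 3, which ranked 3rd and 2nd of all libraries. Fat markers summed to 801 CPM in replicate 1, which ranked 2nd. WT ZT12 replicate 3, ranked 4th for thyroid at 38560 CPM, held 10.3 CPM of Deptor. The part of other tissue in the ZT0 values was not tested.

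At ZT8 Deptor was at 9.69 and 14.5 CPM in WT and at 7.70, 8.04 and 11.2 CPM in KO. At ZT12 it was at 9.02, 7.87 and 10.3 CPM in WT and at 9.38 and 6.80 CPM in KO. The groups overlapped at both times, and each held a group of only 2 libraries. At ZT16 the 5 WT libraries were at 11.9, 11.3, 13.4, 12.9 and 9.32 CPM, and the KO libraries at 7.06, 8.73 and 9.54 CPM. At ZT20 WT was at 9.58, 11.3, 8.72 and 7.04 CPM and KO at 10.5, 11.1, 8.56 and 8.80 CPM. KO was thus mostly below WT at ZT16, with 1 overlapping library on each side, and mixed with WT at ZT20.

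Over all times the log2 fold change of Deptor was -0.30 ± 0.08 (SE; 95% confidence interval -0.46 to -0.13; adjusted p = 0.0160 with edgeR), a change of -18.6%. In 16 of 18 KO libraries the level was below the WT median of 10.6 CPM. WT libraries ranged from 7.04 to 16.0 CPM and KO libraries from 6.80 to 11.2 CPM, so the 2 ranges overlapped and the high values were found in WT. The counts behind these values were 285 to 996 per library. Relative to the mean log2 CPM of the other 9 genes in the same library, which no library scaling can alter and which was added after seeing the data, Deptor was lower in KO by a log2 difference of -0.31, averaged over times, and lower at 5 of 6 times.

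**Figure D2:**
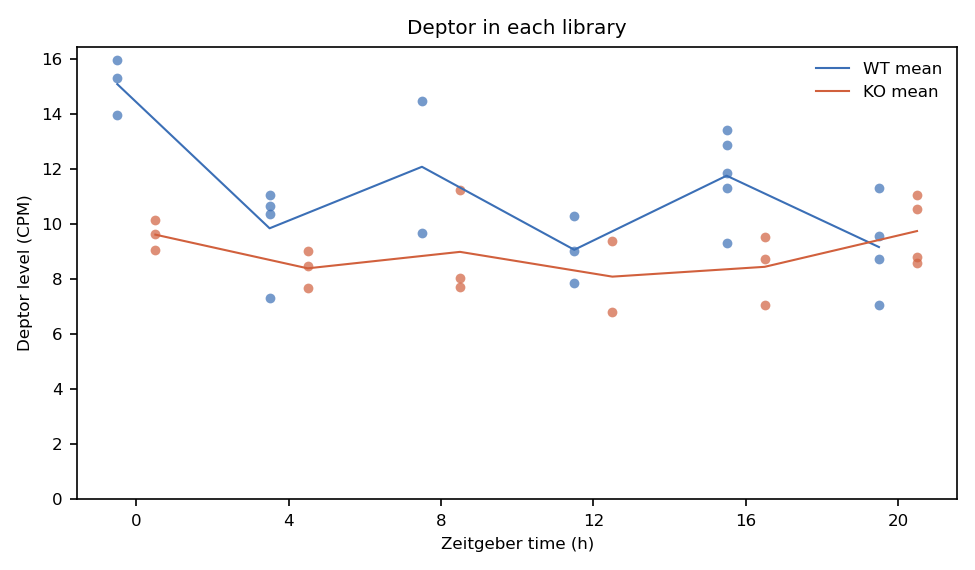
Deptor level (y axis, CPM, starting at 0) in each of the 39 libraries against zeitgeber time (x axis, h), with WT in blue, KO in orange and lines through the group means. All 3 WT libraries at ZT0 lie between 14.0 and 16.0 CPM, above every KO library, while the genotypes mix at ZT20. Those 3 libraries are rich in thyroid or fat transcripts.

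Among skeletal muscle markers 2 of 14 tested (Myh1 and Myl1) passed the edgeR test as lower in KO, where 4.11% of all genes did. The list summed to 158 to 691 CPM in WT (median 346) and 191 to 401 CPM in KO (median 248). Acta1 went the other way, with medians of 0.148 CPM in WT and 0.212 CPM in KO. The count of muscle markers that passed was 2 with DESeq2 and 1 without the 3 samples of unclear time. It was also 1 without the 2 libraries richest in fat transcripts and with a replicate block. It was 0 with 4 tissue scores as covariates and 0 without the 12 libraries richest in lymphoid transcripts. With scores of thyroid, lymphoid, muscle and fat content as covariates Deptor stayed lower in KO, at -0.26 (adjusted p = 0.0393 with edgeR). Without the 12 libraries richest in lymphoid transcripts, 6 of each genotype, its log2 fold change was -0.34 and the adjusted p 0.0621, in a fit in which the calls over all genes dropped from 1435 to 454. Those 12 included KO ZT12 replicates 1 and 2, the only KO libraries at that time, and WT ZT8 replicate 1. None of the thyroid, lymphoid, fat, macrophage, endothelial or fibroblast markers passed the genotype test in edgeR, with 2 at an unadjusted p under 0.05 and 0 with DESeq2. Of the 10 parathyroid markers 0 passed with edgeR and 2 had an unadjusted p under 0.05, against 7.69% and 21.1% of all genes. With DESeq2 1 of them passed (9.75% of all genes did), and with the 4 scores 4 did (12.1% of all genes). Their summed median was 245142 CPM in WT and 218320 CPM in KO.

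Rptor and Rictor, the defining subunits of mTORC1 and mTORC2, had positive fold changes of similar size. Rptor was at 69.0 ± 5.96 CPM in WT and 74.0 ± 8.00 in KO, and a log2 fold change of 0.11 ± 0.04 (SE; 95% confidence interval 0.024 to 0.20; adjusted p = 0.116 with edgeR). Rictor was at 82.9 ± 6.89 CPM in WT and 88.8 ± 6.46 in KO, and a log2 fold change of 0.10 ± 0.04 (SE; 0.029 to 0.17; adjusted p = 0.0772 with edgeR). Of the 18 KO libraries, 13 were above the WT median for Rptor and 15 for Rictor. Both were past an unadjusted p of 0.05, as were Deptor and Eif4ebp1, which makes 4 of 10 genes against 21.1% of all genes. Rptor passed with the 4 tissue scores (0.15, adjusted p = 0.0201 with edgeR), where 12.1% of all genes did. It also passed without the 3 samples of unclear time (0.14, adjusted p = 0.0402 with edgeR), where 8.09% did. Rictor passed with a filter at a mean of 1 CPM (0.11, adjusted p = 0.0370 with edgeR), for which the share of all genes is not given here. With DESeq2 neither passed (adjusted p = 0.0815 for Rptor and 0.0519 for Rictor). Without the 12 lymphoid-rich libraries the log2 fold changes were smaller, at 0.079 for Rptor and 0.053 for Rictor.

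The upstream regulators showed no difference past the test. Tsc1 had a log2 fold change of 0.032 (95% confidence interval -0.051 to 0.12; adjusted p = 0.700 with edgeR) and Tsc2 one of 0.015 (-0.087 to 0.12; adjusted p = 0.904 with edgeR). For Rheb it was -0.047 (-0.12 to 0.024; adjusted p = 0.468 with edgeR), and for Mtor itself 0.038 (-0.061 to 0.14; adjusted p = 0.696 with edgeR). For Sesn1 it was -0.045 (-0.13 to 0.035; adjusted p = 0.549 with edgeR). The signs for Tsc1, Tsc2 and Sesn1 turned without the 12 lymphoid-rich libraries.

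Of the mTORC1 substrates, the kinase gene Rps6kb1 was at 48.2 ± 3.42 CPM in WT and 50.6 ± 3.57 CPM in KO, with a log2 fold change of 0.065 ± 0.033 (SE; 95% confidence interval -0.0024 to 0.13; adjusted p = 0.256 with edgeR). The repressor gene Eif4ebp1 was at 15.0 ± 2.45 CPM in WT and 13.8 ± 1.63 CPM in KO. Its log2 fold change was -0.14 ± 0.06 (SE; -0.27 to -0.012; adjusted p = 0.190 with edgeR). Its highest value, 23.0 CPM, was read in WT ZT0 replicate 1, and KO ZT8 replicate 3 held 18.6 CPM. Those 2 libraries also held the most fat transcripts, with fat markers summing to 801 and 913 CPM against a median of 119 CPM in the other 37 libraries. In those 37 libraries Eif4ebp1 lay between 11.7 and 18.8 CPM. The most fat-rich of them, KO ZT20 replicate 2 with fat markers at 574 CPM, held 13.2 CPM. The library that followed, WT ZT16 replicate 1 with fat markers at 402 CPM, held the 18.8 CPM. The part of fat in the level of Eif4ebp1 was not tested.

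**Figure D3:**
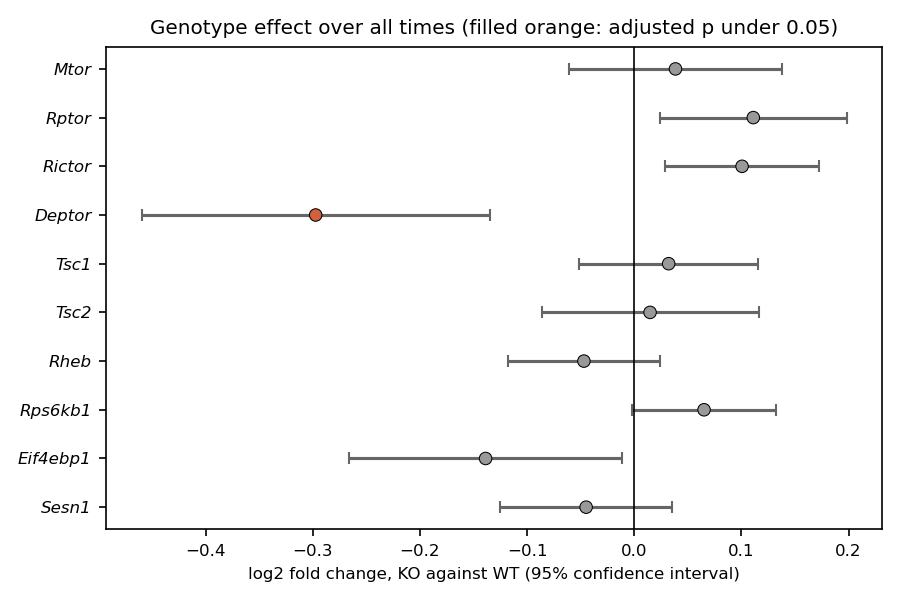
Log2 fold change of KO against WT (x axis) for each of the 10 genes (y axis), from edgeR with time as a factor, n = 21 and 18. Points are estimates, bars are 95% confidence intervals, and orange marks an adjusted p under 0.05, which Deptor alone reached, at -0.30.

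At single times, no gene differed past the test, and the leaning genes were spread over ZT0, ZT8, ZT16 and ZT20. In a fit of the 12 group means, 0 of the 60 combinations of gene and time passed with edgeR and 8 were past an unadjusted p of 0.05, where 0.238% and 8.69% of all genes and times did. Those shares pool the 6 times, which were unlike. With edgeR, Rptor at ZT20 had a p of 0.00281 and an adjusted p of 0.0963. Deptor at ZT0 had a smaller p of 0.00116 but an adjusted p of 0.345. Small p-values were thus more common over all genes at ZT20 than at ZT0. With DESeq2 1 combination passed, Rptor at ZT20, and the share of all genes and times that passed with DESeq2 is not given here. The smallest adjusted p of the 60 with edgeR was 0.0963, and 0.413 with times from the other label. Without single libraries it ran from 0.0455 (KO ZT20 replicate 4) to 0.262 (KO ZT20 replicate 1). Groups of 2 libraries were assumed to vary like the others.

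Deptor differed most at ZT0, where the log2 fold change was -0.66 ± 0.18 (SE; 95% confidence interval -1.03 to -0.28; adjusted p = 0.345 with edgeR). It was -0.44 ± 0.20 at ZT8 and -0.48 ± 0.17 at ZT16, and 0.081 ± 0.160 at ZT20. The difference between times was itself tested and did not pass: an interaction of genotype with time as a factor gave Deptor a p of 0.0643 and an adjusted p of 0.970 with edgeR. At ZT20 Rptor was at 67.2, 64.1, 60.4 and 60.0 CPM in WT and at 94.8, 75.3, 73.5 and 67.7 CPM in KO. The groups did not overlap but nearly touched, and the log2 fold change was 0.30 ± 0.09 (SE; adjusted p = 0.0963 with edgeR, and 0.0371 with DESeq2). Rictor at ZT20 was at 79.7, 72.5, 84.0 and 67.9 CPM in WT and at 92.6, 91.9, 87.1 and 85.7 CPM in KO, again without overlap (0.22 ± 0.08; adjusted p = 0.122 with edgeR).

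The CPM ranges of WT and KO did not overlap for 3 of 10 genes at ZT0 (Deptor, Rps6kb1 and Eif4ebp1), where 11.4% of all genes were apart in this way. At ZT20 it was 3 of 10 (Rptor, Rictor and Eif4ebp1) against 9.82% of all genes. It was 1 of 10 at ZT8 (Rps6kb1; 23.5% of all genes) and 1 of 10 at ZT12 (Rheb; 23.7%), the times with a group of 2 libraries. At ZT4 and ZT16 it was 0 of 10, against 6.75% and 3.77% of all genes. The same 39 libraries underlie all these counts and the test over all times.

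None of the 10 genes had a daily rhythm past the test in either genotype. In WT the 24 h cosine test passed 0 of 10 genes with edgeR and 0 with DESeq2, with 2 at an unadjusted p under 0.05 by either tool, while 0.248% of 18131 genes passed and 14.9% had an unadjusted p under 0.05. In KO it passed 0 of 10 with both tools and 0 at an unadjusted p under 0.05, while 0.0779% of 17969 genes passed and 8.27% had an unadjusted p under 0.05. For reference, the same edgeR test passed 4 of 7 clock genes (Arntl, Npas2, Clock, Cry1, Per2, Nr1d1 and Dbp) in WT and 3 of 7 in KO. The genotype test over all times passed 3 of these 7 with edgeR and 4 with DESeq2, against 7.69% and 9.75% of all genes. Amplitudes, from the mean to the peak of a cosine fitted to log2 CPM, had a median of 0.098 in WT over the 10 genes against 0.14 over all genes, and of 0.077 in KO against 0.12.

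Rptor had the smallest p in WT, with an amplitude of 0.10 ± 0.04 (SE, n = 21) on the log2 scale, a fitted peak at ZT 11.2 and an adjusted p of 0.322 with edgeR. Its WT means ranged from 62.9 CPM at ZT20 to 73.3 CPM at ZT16. Tsc1 had an amplitude of 0.10 ± 0.03 (SE) with a fitted peak at ZT 9.70 and an adjusted p of 0.329 with edgeR. These amplitudes correspond to a peak only 1.15-fold above the trough for both genes. Eif4ebp1 had the widest fitted swing in WT, 0.16 ± 0.06 (SE) with a peak at ZT 22.6 (adjusted p = 0.347 with edgeR), and its highest time mean, at ZT0, includes the fat-rich library of 23.0 CPM.

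For Deptor the WT time means ran from 9.06 ± 1.21 CPM at ZT12 (SD, n = 3) to 15.1 ± 1.01 CPM at ZT0 (SD, n = 3), a ratio of 1.66, and the cosine amplitude was 0.10 ± 0.11 (SE). With time as a factor in place of a cosine, Deptor had the smallest p of the members in WT (p = 0.00394, adjusted p = 0.157 with edgeR, n = 21), which did not pass. In KO its time means lay closer together, from 8.09 CPM at ZT12 to 9.74 CPM at ZT20, a ratio of 1.20.

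The difference in rhythm between genotypes was tested by the interaction of genotype with the cosine terms. With edgeR 0 of 10 genes passed, against 0.0161% of all genes, and DESeq2 also passed 0. Mtor (p = 0.0382) and Eif4ebp1 (p = 0.0277) had unadjusted p-values under 0.05 in edgeR's fit across all genes (n = 21 and 18), as did 3.69% of all genes, each with an adjusted p of 1.0. Mtor had amplitudes of 0.12 ± 0.05 in WT and 0.068 ± 0.042 in KO (SE), with fitted peaks at ZT 9.26 and ZT 18.1. Eif4ebp1 had amplitudes of 0.16 ± 0.06 in WT and 0.10 ± 0.05 in KO, with fitted peaks at ZT 22.6 and ZT 6.24. Since neither gene passed the cosine test in either genotype, these peak times are descriptions of the fit.

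**Figure D4:**
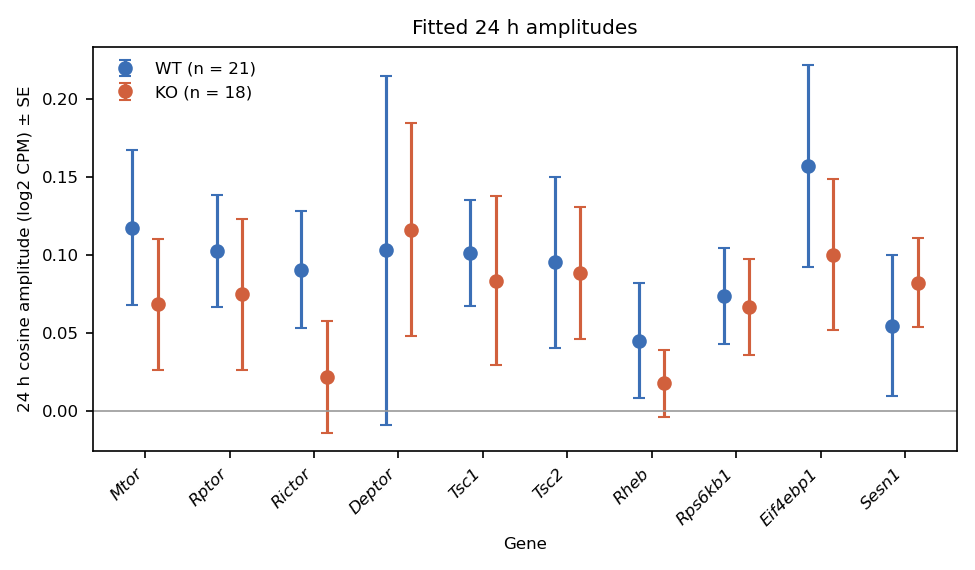
Amplitude of a 24 h cosine fitted to log2 CPM (y axis) for each gene (x axis), in WT (blue, n = 21) and KO (orange, n = 18). Points are estimates and bars are ± SE. All amplitudes are at or below 0.16, and the bars of WT and KO overlap for every gene.

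Across libraries several of these mRNAs varied together. Deviations from the group means in log2 CPM were correlated for all 45 pairs over 39 libraries, with p-values from 100000 permutations within groups, adjusted over the 45 pairs. After adjustment of Pearson's r, 8 pairs were past 0.05 with a positive r and 4 with a negative r, and 0 of the 12 included Deptor. The libraries differ in tissue content and depth, and the share of this covariation that those differences carry was not tested. Pairs of other genes were not counted in the same way, so whether 12 of 45 is unusual cannot be told.

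Rptor, Tsc2, Tsc1 and Mtor formed the group that varied most closely together. Rptor and Tsc2 had r = 0.77 (permutation p = 8e-05, adjusted 0.0009) and Spearman's rho = 0.74 (adjusted permutation p = 0.0018), and r was 0.73 without the 2 libraries farthest from the median of Rptor. Rptor and Tsc1 had r = 0.72 and rho = 0.72 (permutation p = 1e-05, the smallest that the permutations can give, adjusted 0.000225), with 0.69 without 2 libraries. Mtor and Rptor had r = 0.71 and rho = 0.72 (permutation p = 3e-05, adjusted 0.00045), with 0.75 without 2 libraries. Within WT and KO, r was 0.74 and 0.91 for Rptor with Tsc2, 0.52 and 0.83 for Rptor with Tsc1, and 0.65 and 0.83 for Mtor with Rptor. Mtor with Tsc2 (r = 0.68), Tsc1 with Tsc2 (0.64), Rictor with Rps6kb1 (0.52), Mtor with Tsc1 (0.51) and Mtor with Rictor (0.46) were the other positive pairs, of which Rictor with Rps6kb1 missed 0.05 by Spearman's rho (adjusted permutation p = 0.0528). Some of these differed in r between WT and KO, with 0.22 and 0.81 for Mtor with Tsc1, 0.29 and 0.67 for Mtor with Rictor, and 0.77 and 0.26 for Rictor with Rps6kb1. The difference in r between genotypes was not tested.

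The negative pairs joined those genes with Eif4ebp1 and Rheb, the genes with the shortest exons. Mtor and Eif4ebp1 had r = -0.54 and rho = -0.55 (permutation p = 0.00229, adjusted 0.0172), with -0.49 without the 2 libraries farthest from the median of Mtor. Rptor with Rheb (r = -0.47), Mtor with Rheb (-0.43) and Rptor with Eif4ebp1 (-0.36) were the other negative pairs past 0.05 by r, and none of these 3 was by Spearman's rho (adjusted permutation p = 0.0528, 0.0603 and 0.0528). Tsc2 with Rheb (r = -0.52) missed 0.05 by r (adjusted permutation p = 0.0513). By Spearman's rho of -0.51 that pair passed (adjusted permutation p = 0.048). Exon lengths were 1784 bases for Rheb and 1997 bases for Eif4ebp1, against 6338 for Tsc2, 6594 for Rptor, 7706 for Tsc1 and 8564 for Mtor. The part of exon length in this split was not tested.

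**Figure D5:**
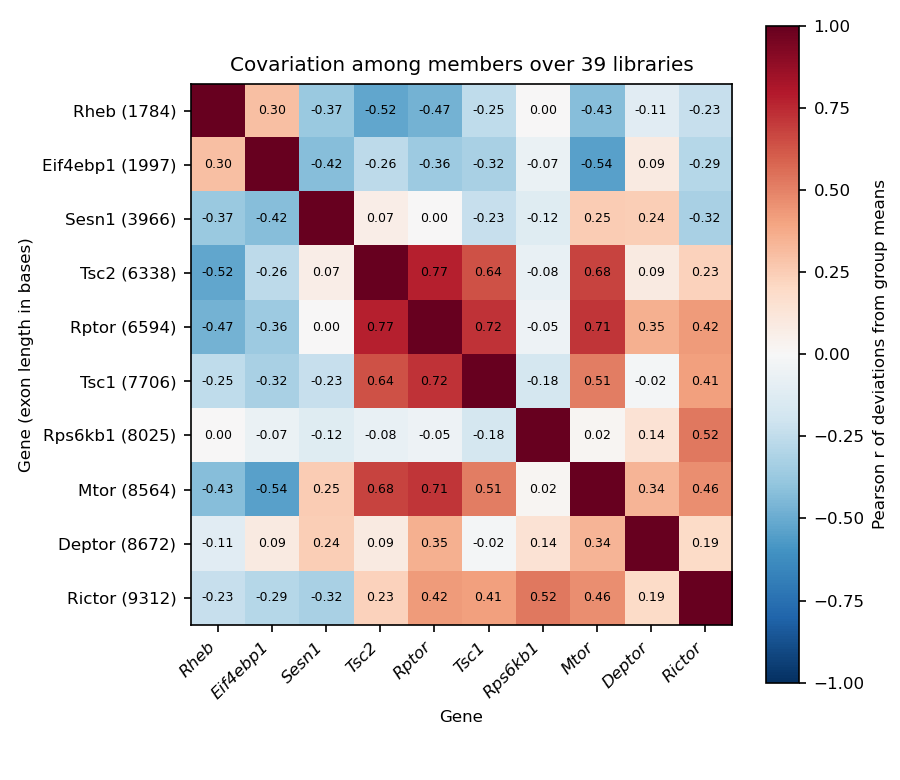
Pearson's r of deviations from group means in log2 CPM for each pair of the 10 genes over 39 libraries, ordered by exon length in bases (given beside the names on the y axis), with red for positive and blue for negative r. Tsc2, Rptor, Tsc1 and Mtor form a red block with r between 0.51 and 0.77, and the rows of Rheb and Eif4ebp1 are blue against them.

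The 5 genes whose 12 group means followed a member most closely were named for Deptor, the gene of smallest genotype p, and for Rptor, that of smallest p for rhythm in WT, among 12758 protein-coding genes. For Deptor they were Ndrg1 (r = 0.94 over 12 group means), Pmepa1 (0.93), Ltbp1 (0.92), Abcc9 (0.91) and Sptbn1 (0.91). None of these 5 passed the genotype test in edgeR, and their log2 fold changes were -0.36, -0.54, -0.30, -0.40 and -0.077, all negative like that of Deptor. For Rptor they included Prrc2b (r = 0.95), Foxj2 (0.94), Nup214 (0.94) and Arid1a (0.94), whose fold changes were positive and did not pass the test. These genes were selected as the top of a ranking, so the correlations are descriptions without a test. The ranking used group means of both genotypes, so the shared signs of the fold changes follow in part from the selection.

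Over 9 lists of further pathway genes, 162 of 163 were tested and 17 passed the edgeR test (10.5%, against 7.69% of all genes), 7 higher and 10 lower in KO, with 47 at an unadjusted p under 0.05 against 21.1% of all genes. Their median log2 fold change was -0.024, and the genes that passed lay in both directions. The lists were chosen with earlier results of these data known, so the comparison with all genes is a description. The count was 21 with DESeq2, where 9.75% of all genes passed, and 33 with the 4 tissue scores, where 12.1% did. Without the 12 lymphoid-rich libraries it was 5, and 2.42% of all genes passed. Of the genes named from these lists as past the test, Lamtor3, Slc7a11 and Aen also passed without those 12 libraries, and the others did not.

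Among further subunits and assembly factors of the mTOR complexes, 0 of 10 passed with edgeR or DESeq2, and 3 had an unadjusted p under 0.05. The gene of smallest p was Prr5l, whose protein binds mTORC2, at 1.69 ± 0.672 CPM in WT and 2.27 ± 0.899 in KO (log2 fold change 0.44 ± 0.17, adjusted p = 0.120 with edgeR). In amino acid sensing 4 of 29 passed. Lamtor3, a subunit of the Ragulator scaffold that docks mTORC1 on the lysosome, fell from 34.5 ± 3.15 to 30.6 ± 2.78 CPM (-0.18 ± 0.04, adjusted p = 0.00562 with edgeR). Nprl2, a subunit of the mTORC1 inhibitor GATOR1, fell by a small step (-0.14 ± 0.04, adjusted p = 0.0274 with edgeR). It missed the threshold with the replicate block (adjusted p = 0.0593 with edgeR) and without WT ZT4 replicate 4, WT ZT8 replicate 1, WT ZT12 replicate 2, KO ZT0 replicate 1, KO ZT4 replicate 3 or KO ZT12 replicate 1 (up to 0.0615).

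In insulin and PI3K signalling 3 of 22 passed. The receptor gene Igf1r rose from 79.8 ± 15.7 to 94.5 ± 14.0 CPM (0.28 ± 0.07, adjusted p = 0.0114 with edgeR), and 16 of 18 KO libraries were above the WT median. Pik3cb, a catalytic PI3K subunit, was higher in KO (0.18 ± 0.05, adjusted p = 0.0379 with edgeR) and Pik3r3, a regulatory one, lower (-0.23 ± 0.06, adjusted p = 0.00718 with edgeR). The call for Pik3cb was lost in 6 of 13 alternatives, with 0.084 without the 12 lymphoid-rich libraries and an adjusted p of 0.0589 with the replicate block and 0.156 with no time term in edgeR. It was also lost in 11 of 39 fits without a single library (adjusted p up to 0.0972 with edgeR): WT ZT4 replicate 3, either WT ZT8 library, WT ZT20 replicates 2, 3 and 4, KO ZT4 replicate 2, KO ZT8 replicate 1, KO ZT12 replicate 1, KO ZT16 replicate 3 and KO ZT20 replicate 1. Igf1r missed the threshold with times from the other label (adjusted p = 0.0594 with edgeR), a cosine time term (0.0501) or no time term (0.0634). All 18 KO libraries were below the WT median for Pik3r3, with means of 83.3 ± 12.3 CPM in WT and 70.8 ± 5.58 CPM in KO. Among energy and stress inputs to the TSC complex 2 of 18 passed. Rps6ka1, a kinase that phosphorylates TSC2 downstream of ERK, rose from 44.1 ± 5.54 to 50.6 ± 4.14 CPM (0.21 ± 0.05, adjusted p = 0.00326 with edgeR). Ddit4, the stress-induced mTORC1 inhibitor REDD1, fell from 49.5 ± 11.3 to 40.5 ± 7.96 CPM (-0.26 ± 0.07, adjusted p = 0.0282 with edgeR), and missed the threshold with no time term (0.0507) and without WT ZT12 replicate 3 (0.0550) or KO ZT16 replicate 2 (0.0651).

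In translation control 1 of 17 passed, Eef2k, the kinase that slows elongation and is inhibited by S6 kinase (0.15 ± 0.04, adjusted p = 0.0280 with edgeR, and 0.0582 with no time term). In autophagy and lysosome genes 1 of 20 passed, the protease gene Ctsb (-0.16 ± 0.05, adjusted p = 0.0229 with edgeR). Ctsb missed the threshold without WT ZT8 replicate 1, WT ZT12 replicate 3, KO ZT16 replicate 2 or KO ZT20 replicate 4 (adjusted p up to 0.0742 with edgeR). Among targets of ATF4, a transcription factor that mTORC1 promotes, 4 of 17 passed, 2 in each direction. The largest fold change of the 9 lists among genes that passed was here: Slc7a11, the cystine transporter, fell from 8.88 ± 3.31 CPM in WT to 3.40 ± 1.93 CPM in KO (-1.36 ± 0.22, adjusted p = 8.08e-05 with edgeR), and 17 of 18 KO libraries were below the WT median. Its partner chain Slc3a2 was higher in KO (0.19 ± 0.05, adjusted p = 0.0120 with edgeR), as was the serine synthesis gene Phgdh (0.18 ± 0.05, adjusted p = 0.0201 with edgeR, but 0.0818 with no time term and 0.0711 with a cosine time term).

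Of targets of p53, the factor that induces sestrins after DNA damage, 1 of 15 passed: Aen, an exonuclease gene, fell from 19.8 ± 2.33 to 16.3 ± 1.56 CPM (-0.27 ± 0.05, adjusted p = 4.68e-04 with edgeR). All 18 KO libraries were below the WT median for Aen. Of FOXO targets 1 of 14 passed, the transcription factor gene Klf15 (-0.29 ± 0.09, adjusted p = 0.0341 with edgeR). Klf15 missed the threshold without the 2 fat-rich libraries (adjusted p = 0.0651 with edgeR), with no time term (0.0707) and in 10 of 39 fits without a single library (up to 0.0774). Those libraries were WT ZT4 replicates 2 and 4, WT ZT8 replicate 1, WT ZT12 replicate 3, KO ZT4 replicates 2 and 3, KO ZT8 replicate 3, KO ZT16 replicates 2 and 3 and KO ZT20 replicate 4. In the 24 h cosine test 0 of the 162 genes passed with edgeR in WT, where 0.248% of all genes did, and 5 with DESeq2, where 1.89% did. An unadjusted p under 0.05 was found for 24 of them in WT with edgeR, against 14.9% of all genes. In KO 0 passed with edgeR, against 0.0779% of all genes, and 1 with DESeq2, against 0.473%, with 17 at an unadjusted p under 0.05, against 8.27%.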

How the data were processed

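RNA-seq counts per gene were taken as deposited: the authors provided raw whole-number counts, 1 column per sample. Build mm10 and the tools featureCounts 2.0.1, STAR 2.7.8a and DESeq2 1.30.1 are listed in the submitters' processing notes; neither annotation nor strand setting is given in the sources. Even numbers made up 89.6% of low counts (1 to 10), so each fragment seems to count as 2 mates. Symbols, matched for 25275 of 27179 IDs (98.0% of counts), and coordinates came from RefSeq GRCm38.p6, and exon lengths from transcripts of the same build. Each library's 38111766 to 68938704 counts were scaled to CPM by TMM factors (trimmed mean of M-values) from edgeR 4.0.16 in R 4.3.3, which ranged from 0.837 to 1.06 in WT and from 0.980 to 1.08 in KO.

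Tests used edgeR's robust quasi-likelihood fit (filterByExpr, Benjamini-Hochberg over all genes tested, threshold 0.05): genotype with time as a factor, cosine terms of 24 h within a genotype, their interaction with genotype, and contrasts within a fit of 12 groups. Standard errors are the log2 fold change divided by the root of F. Amplitudes with SE are least-squares fits to log2 CPM with a prior count of 2. The fits were tested on simulated counts. Within groups the 48 pairs of replicates differed by a chi-square of at least 18.0 per gene on halved counts, so none was a copy. Alternatives included DESeq2 1.42.0, other scaling, filters and time terms, tissue scores, a replicate block and left-out libraries.

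The members and lists were chosen with earlier results of these data known. From each wider list, up to 3 genes of smallest p among those past the threshold are named, or else its gene of smallest p; for likeness, the 5 genes of highest r among those with a mean of at least 1 CPM. Results of 2 genes that this rule names are not reported here. Promoter windows are RefSeq sequence.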

Additional observations from a re-analysis of the deposited data

Results flagged for a closer look

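Of 40 groups of 4 or 5 libraries (10 genes, 4 groups), 2 held a library set apart from the rest of its group, where chance gives about 1 in 20. Tsc1 in WT at ZT4 was read at 52.0 CPM in replicate 3, below the 59.3 to 60.7 CPM of the other 3 libraries. Eif4ebp1 in WT at ZT16 was read at 18.8 CPM in replicate 1, above the 12.8 to 14.3 CPM of the other 4 libraries. That library ranked 4th of all libraries for fat markers, which summed to 402 CPM.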

How the results depend on the processing

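Deptor was lower in KO under all 13 alternatives (log2 fold change -0.34 to -0.26) and without each library in turn (-0.33 to -0.26, adjusted p 0.00522 to 0.0342 with edgeR), and missed the threshold only without the 12 lymphoid-rich libraries (adjusted p = 0.0621). The number of the 10 genes past the genotype test was 1 as reported and with DESeq2, 2 with a filter at a mean of 1 CPM, without the 3 samples of unclear time or with 4 tissue scores, and 0 without the 12 lymphoid-rich libraries, a fit of fewer samples. Without each library in turn it was 1 to 3, with Rictor added in 5 fits (without WT ZT4 replicate 1, WT ZT12 replicate 2 or KO ZT0 replicate 1, KO ZT4 replicate 1 or replicate 3) and Rptor in 1 (without KO ZT4 replicate 1). Of all genes 7.69% passed as reported, 9.75% with DESeq2 and 12.1% with 4 tissue scores. It was 8.09% without the 3 samples of unclear time and 2.42% without the 12 lymphoid-rich libraries. The shares with the 1 CPM filter and without single libraries are not given here. Combinations of gene and time past the test numbered 0 as reported, 1 with DESeq2 and 0 to 1 without each library (1 without KO ZT20 replicate 4). Without the 12 lymphoid-rich libraries the fold change turned to -0.0023 for Tsc1, -0.038 for Tsc2 and 0.015 for Sesn1; leaving out single libraries gave Tsc2 -0.0070 to 0.043. Counts of rhythms, in either genotype or different between them, were 0 under every alternative run. Without the 12 lymphoid-rich libraries those fits held no KO library at ZT12. Leaving out the 2 fat-rich libraries, chosen after seeing the data, changed none of these counts. Replicate numbers did not pair the samples: over 17 same-numbered WT and KO samples the correlation of deviations ran from -0.29 to 0.51, 8 were above 0.1, and 7 WT samples correlated best with their own number. With the number as a replicate block the genotype count was 1 and Deptor -0.32 (adjusted p = 0.0104 with edgeR); rhythm and single-time counts were 0. With 2 to 5 libraries a group, single-time differences are the least precise, and intervals cover the spread between pools of 2 mice.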
